A study of Mus musculus with 3 samples.

Results

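The genes described here are 10 members of the Notch signalling pathway, of 51923 gene rows in the deposited matrix of single-cell RNA counts from mouse embryos. They were taken by symbol and comprise 3 receptors (Notch1, Notch2, Notch4), 4 ligands (Jag1, Jag2, Dll1, Dll4) and 3 nuclear target genes (Hey1, Hey2, Hes1). The cells carried Mesp1-Cre, a Cre recombinase driven by a gene of the earliest mesoderm, the red fluorescent reporter Ai9 and floxed Wls, the gene for the carrier protein that Wnt ligands need for their secretion, all on a C57BL/6 background. Controls had 1 floxed Wls allele (fl/+) and mutants had 2 (fl/fl), so both genotypes carried Cre, the reporter and at least 1 floxed allele. The reporter-sorted cells came from embryos at E8.0, E8.5 and E9.5. They were tagged by sample with MULTI-seq lipid barcodes, pooled and captured with droplets in 3 runs. Because the reporter marks descendants of Mesp1-expressing mesoderm, cells of the embryo outside that lineage were largely not sampled.

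In Notch signalling, a ligand on 1 cell (the Jagged and Delta-like proteins) binds a Notch receptor on its neighbour. The receptor is then cut, and its freed intracellular part joins the DNA-binding protein RBPJ to switch on targets such as the Hes and Hey repressors. Notch1, Notch4 and Dll4 are best known in arterial and other endothelium, Jag1 in the heart and outflow tract, Dll1 in the presomitic mesoderm from which somites form, and Hey1 and Hey2 as the atrial and ventricular members of a repressor family in the heart.

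Positions are those of GENCODE M21 (GRCm38), which lists all 10 symbols. Of the receptors, Notch1 spans chr2:26457903-26516663 on the minus strand, Notch2 chr3:98013527-98150361 on the plus strand and Notch4 chr17:34564268-34588503 on the plus strand. The ligand genes are Jag1 (chr2:137081456-137116644, minus), Jag2 (chr12:112907819-112929776, minus), Dll1 (chr17:15367354-15376872, minus) and Dll4 (chr2:119325784-119335962, plus). The target genes are Hey1 (chr3:8663359-8667256, minus), Hey2 (chr10:30832359-30842801, minus) and Hes1 (chr16:30064384-30067796, plus).

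Jag2 and Hey2 carried the genotype differences described below, so the 250 bases before their RefSeq starts were searched on GRCm38.p6. The RefSeq and GENCODE starts differ for both: the Jag2 window (chr12:112929496-112929745) lies inside the first, untranslated part of the GENCODE gene and is not printed, and the Hey2 window reaches past the GENCODE start by its last bases only. The Hey2 window is shown 5′ to 3′ on the strand of the gene (minus). Capitals mark matches, on either strand, to TGGGAA, the core letters bound by RBPJ, and to ACGTG or GCGTG, the core letters bound by hypoxia-inducible factors.
Hey2, chr10:30842784-30843033: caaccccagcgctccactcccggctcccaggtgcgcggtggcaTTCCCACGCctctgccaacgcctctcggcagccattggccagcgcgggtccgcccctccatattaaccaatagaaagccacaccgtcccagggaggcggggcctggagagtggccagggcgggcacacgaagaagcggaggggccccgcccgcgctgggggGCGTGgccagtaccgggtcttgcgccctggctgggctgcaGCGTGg
The Hey2 window held 1 TGGGAA match, on the reverse strand 207 bases before the RefSeq start, which overlaps 1 of its 3 hypoxia-factor matches. The Jag2 window held no TGGGAA match and 1 hypoxia-factor match, 168 bases before the RefSeq start. Of the 8 members that had an entry (9 windows), Hey2 alone held TGGGAA, while 8 of the 9 windows, those of all these members but Notch1, held ACGTG or GCGTG. Over all 32851 windows of this length, 21.59% held TGGGAA and 38.6% held ACGTG or GCGTG. The members' windows were 56.0 to 87.2% G and C, and ACGTG and GCGTG both contain CG. The part of this composition in the count was not tested. Such matches are letters in a window and show no binding.

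The matrix held 14777 cells with a median of 21739 UMIs (unique molecular identifiers, each standing for 1 counted RNA molecule) per cell, 11866 in run 3 against 23112 and 23555 in runs 1 and 2. The unit compared was the barcode sample, the sum of all cells that share a barcode. There were 22 samples, 12 control and 10 mutant, of 6 to 2508 cells and 134457 to 61307782 UMIs. At E8.0 there were 3 control and 3 mutant samples, at E8.5 there were 2 and 1, and at E9.5 there were 6 and 6, while a further control of 28 cells bears the label E7.5. E8.0 lay in run 1 alone and E9.5 in all 3 runs. The labels do not say how many embryos share a barcode, so p-values measure the spread between these samples. Between runs, 23 cell barcodes recurred. At E8.0 the share of cells scored male was between 0.861 and 0.883 in the mutants and was 0.0176, 0.018 and 0.445 in the controls, so sex and genotype cannot be told apart there. At E9.5 both genotypes held mostly male and mostly female samples, but the mostly male controls were the small samples Bar6 (6 cells) and Bar7 (164 cells) alone. Wls itself fell in the mutants over all cells (log2 fold change −2.38 ± 0.15, adjusted p = 3.94e-09, edgeR).

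Levels below are CPM, the UMIs of a gene scaled to 1000000 UMIs of the summed cells, and they are compared between samples of 1 gene, not between genes. In sums over all cells, fewer cells of a type and less RNA per cell cannot be told apart. The members were therefore also followed in cells with at least 2 UMIs of Cdh5 (the endothelial cadherin), of Tnnt2 (cardiac troponin T) or of Tcf15 (a transcription factor of somites and paraxial mesoderm). There were 326 Cdh5-positive, 2284 Tnnt2-positive and 2264 Tcf15-positive cells, 131 cells that passed for more than 1 of the genes, and 10035 that passed for none. Just inside the threshold, with 2 UMIs, lay 52, 556 and 386 cells, and just outside, with 1 UMI, lay 144, 2381 and 1147. Samples with at least 20 cells of a class were used, which left 7, 18 and 15 samples. In the Cdh5 and Tcf15 classes Bar6 and Bar7 fell short of 20 cells. The E9.5 controls left there were all mostly female (male share 0.0161 to 0.0249). Of the E9.5 mutants left, Bar19 (0.891) and Bar21 (0.885) were mostly male and Bar20 (0.0258) mostly female, with Bar19 alone in the Cdh5 class. At E9.5, sex and genotype thus cannot be told apart in Cdh5-positive cells and largely coincide in Tcf15-positive cells.

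The classes were checked on marker genes that were not used to select the cells. The summed level of 7 endothelial genes (Pecam1, Kdr, Tek, Tie1, Emcn, Esam and Egfl7) was 2273 ± 198 CPM (SD, n = 7) in Cdh5-positive cells, against 143.9 in Tnnt2-positive and 169.8 in Tcf15-positive cells. Cardiomyocyte genes (7, with Actc1, Myl7 and Ttn) summed to 18180 ± 10050 CPM (SD, n = 18) in Tnnt2-positive cells, against 103.5 and 193.1 in Cdh5-positive and Tcf15-positive cells. Paraxial mesoderm genes (6, with Meox1, Pax3 and Uncx) summed to 687.1 ± 115.7 CPM (SD, n = 15) in Tcf15-positive cells, against 47.5 and 39.9 in Cdh5-positive and Tnnt2-positive cells.

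The members differed in the cell class in which they were high. Notch1, Notch4 and Dll4 were high in Cdh5-positive cells, Jag1 was high in Tnnt2-positive cells, Notch2 was high in Tnnt2-positive and Tcf15-positive cells, and Dll1 was higher in Tcf15-positive than in Tnnt2-positive cells. These contrasts were tested over sums of cells positive for 1 class gene alone, with the sample as a block, over 13090 genes with edgeR. Such cells reached 20 in 5 samples for Cdh5 (Bar27, Bar28, Bar3, Bar22 and Bar9), 18 for Tnnt2 and 15 for Tcf15, whereas the ranges below cover all positive cells. The fits used the 15 samples that reached this in more than 1 class. They left out Bar7, Bar8 and Bar10, which reached it for Tnnt2 only. Between Cdh5-positive and Tnnt2-positive cells 6 of the 10 members passed an adjusted p of 0.05, where 39.7% of all genes passed. Between Cdh5-positive and Tcf15-positive cells 7 of 10 passed, against 37.6% of all genes, and between Tnnt2-positive and Tcf15-positive cells 7 of 10, against 55.1%. The members' median log2 fold change was 0.73, 1.55 and 0.30 in these 3 contrasts, beside −0.05, −0.06 and −0.01 over all genes. The filter on low counts was passed by Dll4 and Notch4 through Cdh5-positive cells alone, by Jag2 through no Tcf15-positive sample and by Dll1 through no Tnnt2-positive sample, so these counts and medians are a description. For Notch4 and Jag2 the fits with no filter are given, in which entry does not depend on the level. For Notch4 against Tnnt2-positive cells the adjusted p was 5.46e-08 with the filter (2.96 ± 0.34) and 1.31e-14 without it (edgeR). The fold change and standard error were about the same. P-values of fits with no filter, here and below, are thus not comparable with those of filtered fits, and a smaller one marks no firmer difference.

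Of the receptors, Notch1, which is required for the embryonic vasculature, had a lowest, median and highest level of 28.5, 38.7 and 63.3 CPM over the 7 samples of Cdh5-positive cells. In Tnnt2-positive cells these were 1.185, 2.19 and 8.58 CPM, and in Tcf15-positive cells 1.66, 12.2 and 18.5 CPM. Every Cdh5-positive sample was above every sample of the other classes. The log2 fold change was 4.25 ± 0.25 against Tnnt2-positive cells (adjusted p = 6.79e-14, edgeR) and 1.76 ± 0.22 against Tcf15-positive cells, and Notch1 was also lower in Tnnt2-positive than in Tcf15-positive cells (−2.49 ± 0.17). Notch4, a receptor known mainly from endothelium, lay at 3.73, 16.3 and 27.1 CPM in Cdh5-positive cells, between 0 and 4.61 CPM in Tnnt2-positive cells and between 1.25 and 6.71 CPM in Tcf15-positive cells. Its Cdh5-positive samples were higher than both, with overlap in the lowest sample, and the log2 fold changes with no filter were 2.85 ± 0.35 and 2.53 ± 0.34 (adjusted p = 1.31e-14 and 6.44e-12, edgeR). Notch2, the receptor of smooth muscle and mesenchyme, was lowest in Cdh5-positive cells: 9.68, 15.0 and 22.5 CPM there, 17.1, 40.5 and 51.9 CPM in Tnnt2-positive and 40.2, 56.3 and 78.0 CPM in Tcf15-positive cells. Its log2 fold change was −1.45 ± 0.19 in Cdh5-positive against Tnnt2-positive cells (adjusted p = 7.27e-07, edgeR), −1.83 ± 0.19 against Tcf15-positive cells, and −0.38 ± 0.07 in Tnnt2-positive against Tcf15-positive cells.

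Of the ligands, Dll4, the ligand of arterial and sprouting endothelium, had levels of 15.0, 30.6 and 37.3 CPM in Cdh5-positive cells and did not exceed 2.27 CPM in Tnnt2-positive or 4.96 CPM in Tcf15-positive cells. In cells positive for 1 class gene alone, it was at 24.1 ± 12.3 CPM (SD, n = 5) in Cdh5-positive, 0.221 ± 0.287 CPM (n = 18, of which 15 were fitted) in Tnnt2-positive and 0.11 ± 0.201 CPM (n = 15) in Tcf15-positive cells. Dll4 entered this test through the Cdh5-positive cells in which it is high, so its test is not given. Dll1, whose loss disrupts somite patterning, lay at 2.61, 5.396 and 26.0 CPM in Tcf15-positive cells and between 0 and 1.78 CPM in Tnnt2-positive cells, with no overlap. In cells positive for 1 class gene alone it was at 8.46 ± 6.67 CPM (SD, n = 15) in Tcf15-positive and 0.348 ± 0.553 CPM (n = 18, of which 15 were fitted) in Tnnt2-positive cells. It entered the test through the former, so no fold change is given. In Cdh5-positive cells Dll1 lay between 0 and 4.50 CPM (2.55 ± 1.88 CPM in the cells fitted, n = 5). The call of a difference from Tnnt2-positive cells (adjusted p = 0.0251, edgeR) was lost without the sample Bar27, Bar28 or Bar3 and at 1 or 5 UMIs of the class gene. Jag1 was higher in Tnnt2-positive cells, with 31.1, 79.5 and 116.9 CPM, than in Tcf15-positive cells, with 10.55, 25.9 and 50.6 CPM (1.79 ± 0.18). In Cdh5-positive cells Jag1 lay between 9.33 and 96.2 CPM. It was lower there (−0.96 ± 0.34) than in Tnnt2-positive cells (adjusted p = 0.0252, edgeR), and this call was lost without the control sample Bar3, Bar22 or Bar9 (−1.56 to −0.69 over all 15 samples left out in turn) and in cells of at least 1 UMI of the class gene, where the value was −0.13. Jag2, the other Jagged ligand gene, lay at 3.00, 5.81 and 13.7 CPM in Cdh5-positive, 0.937, 3.897 and 8.79 CPM in Tnnt2-positive and 0, 1.12 and 5.37 CPM in Tcf15-positive cells. With no filter, it was higher than in Tcf15-positive cells by 2.59 ± 0.47 in Cdh5-positive cells (adjusted p = 6.29e-07, edgeR) and by 1.84 ± 0.25 in Tnnt2-positive cells, while ranges overlapped in both pairs.

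Of the targets, the repressor gene Hey2 lay at 5.45, 9.41 and 35.2 CPM in Tnnt2-positive cells, 1.5, 4.08 and 11.7 CPM in Cdh5-positive cells and 0, 2.72 and 5.93 CPM in Tcf15-positive cells. It was higher in Tnnt2-positive than in Tcf15-positive cells by 2.02 ± 0.18 (adjusted p = 1.47e-10, edgeR) and in Cdh5-positive than in Tcf15-positive cells by 1.39 ± 0.43 (adjusted p = 0.0119). The latter call was lost without the mutant sample Bar27 (log2 fold change 0.61). Hey1 lay at 20.7, 30.0 and 39.8 CPM in Cdh5-positive, 6.59, 19.0 and 45.5 CPM in Tnnt2-positive and 2.55, 8.92 and 20.1 CPM in Tcf15-positive cells. The first pair of classes overlapped in range and did not pass, and both were above Tcf15-positive cells (1.70 ± 0.35 and 1.09 ± 0.19). Hes1, a target shared by many cell types, passed in none of the 3 contrasts (−0.18, −0.37 and −0.19). Its medians were 82.1, 87.8 and 84.8 CPM in Cdh5-positive, Tnnt2-positive and Tcf15-positive cells.

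**Figure D1:**
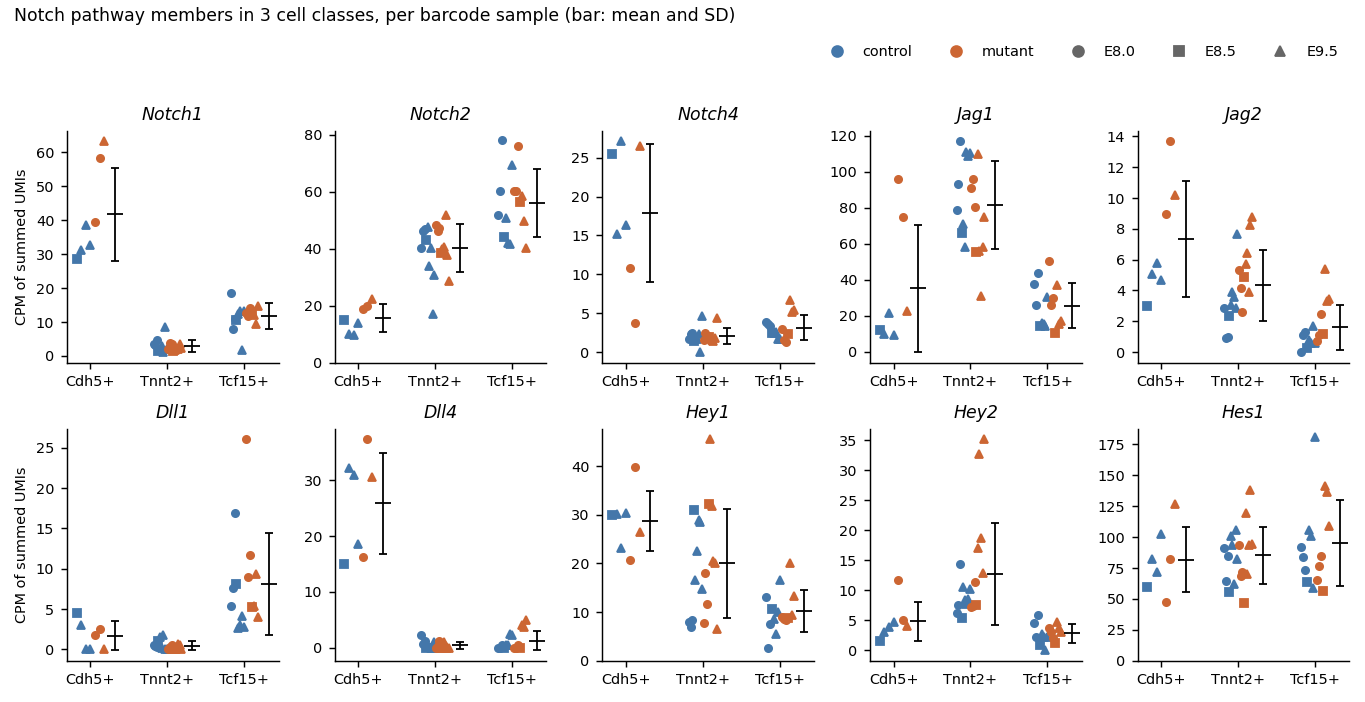
Level of each member (CPM, vertical axis from 0 or below) in Cdh5-positive, Tnnt2-positive and Tcf15-positive cells. A point is 1 barcode sample with at least 20 cells of the class, coloured by genotype and shaped by stage, and bars give the mean and SD; Notch1 and Dll4 lie above the other classes in Cdh5-positive cells, Dll1 lies higher in Tcf15-positive than in Tnnt2-positive cells, and the ranges of Hes1 overlap.

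Depth did not differ much between the classes, with median UMIs per cell of 23860, 22569 and 22201. When each cell was thinned to 5000 UMIs, Notch1 was detected in 19.7% of 325 Cdh5-positive cells (exact binomial 95% interval 15.5 to 24.4%; 59.2% before thinning), Dll4 in 9.54% and Hes1 in 31.4%. Cells rich in globin RNA, which were taken to lack these genes, served as background (2141 thinned cells, median depth 28449 UMIs): Notch1 was detected in 0.42% (interval 0.192 to 0.797%), Dll4 in none (upper bound 0.172%) and Hes1 in 4.44%. Globin RNA takes up part of the 5000 UMIs of these cells, so the background may be understated. In Tnnt2-positive cells the thinned share was 1.115% for Notch1 (interval 0.723 to 1.64%) and 0.223% for Dll4 (interval 0.0725 to 0.52%), while Hey2 was found in 5.22% (interval 4.33 to 6.22%; background 0.374%) and Jag2 in 2.05% (background 0.14%). The intervals of Notch1 and Dll4 there overlap those of their background. In Tcf15-positive cells Jag2 was found in 0.535% (interval 0.277 to 0.933%), which overlaps its background interval of 0.0289 to 0.409%. Intervals cover counting error only.

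The other pathway genes, a list of 39 that includes Notch3, the modifiers Lfng, Mfng and Rfng and the coactivators Maml1 to Maml3, passed between classes about as often as other genes. Of 36 tested, 8 were higher and 3 lower in Cdh5-positive than in Tnnt2-positive cells (30.6%, beside 39.7% of all genes), led by Mfng, a glycosyltransferase that modifies Notch receptors (log2 fold change 6.26), and Nrarp, a Notch-induced feedback inhibitor (4.79), with Lfng at 2.95 and Maml2 at 1.67. Against Tcf15-positive cells 7 were higher and 7 lower (38.9%, beside 37.6%), with Mfng (6.19) and Nrarp (3.74) higher and Heyl (−3.74) and the somite ligand gene Dll3 (−3.38) lower. In Tnnt2-positive against Tcf15-positive cells 7 were higher and 14 lower (58.3%, beside 55.1%), led by Ripply2 (−3.81), Heyl (−3.13), Lfng (−2.53) and Dll3 (−2.33). The list's median log2 fold change was 0.09, −0.02 and −0.04 in these contrasts. Through which samples the listed genes passed the filter on low counts was not examined, here or below. A gene such as Mfng or Nrarp may have entered through the class in which it is high. These counts and fold changes are thus a description.

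Across the 38 class and sample sums, which share libraries and so are not independent, the gene closest in level to Dll4 was Gimap4 (Pearson r 0.967 on the log2 scale). Notch1 was closest to the endothelial transcription factor gene Fli1 (0.896), Notch4 to the endothelial surface gene Cd93 (0.86), Dll1 to the paraxial mesoderm gene Foxc2 (0.859) and Jag1 to Bmp2 (0.881). Notch2 was closest to Rab39b (0.9), Hey2 to Tmem63b (0.882), Jag2 to Reep1 (0.838), Hey1 to Nes (0.732) and Hes1 to the ribosomal gene Rpl35 (0.693). Among the members, Dll4 followed Notch4 (0.775) and Notch1 (0.653), and Jag1 and Hey2 followed each other (0.729), whereas Hey1 and Hey2 did so weakly (0.347).

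Within Tnnt2-positive cells, Hey2 and Jag2 belonged to the cells with UMIs of Myl2, the ventricular myosin light chain, and Notch2 and Hey1 to those without. In 14 samples with at least 20 cells on both sides, Hey2 lay at 7.87, 21.8 and 57.8 CPM (lowest, median, highest) in Myl2-positive cells and at 0, 3.48 and 16.6 CPM in Myl2-negative cells, and it was higher in the Myl2-positive cells of all 14. Jag2 lay at 2.37, 9.26 and 13.9 CPM against 0, 1.875 and 6.41 CPM, and was also higher in 14 of 14. The log2 fold change was 2.54 ± 0.27 for Hey2 (adjusted p = 6.47e-08, edgeR with the sample as a block) with the filter on low counts. Jag2 passed that filter through Myl2-positive samples alone, so its value is given with no filter, 1.92 ± 0.25 (adjusted p = 6.98e-13, edgeR). Notch2 was lower in the Myl2-positive cells of all 14 samples, at 15.2, 23.3 and 36.3 CPM against 37.6, 52.4 and 64.9 CPM (−0.91 ± 0.11, adjusted p = 3.35e-07, edgeR). Hey1, the repressor typical of atrial muscle, was lower in 11 of 14, at 5.52, 11.1 and 28.2 CPM against 6.04, 21.7 and 64.5 CPM (−0.72 ± 0.16, adjusted p = 0.000934, edgeR). Hey1 and Hey2 thus lay on opposite sides of this division.

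Jag1 was 0.37 ± 0.14 higher in Myl2-positive cells (adjusted p = 0.0311, edgeR) but in 8 of 14 samples only. The call was lost without Bar26, Bar29, Bar25, Bar3, Bar23 or Bar20 (0.29 to 0.43 over all 14 samples left out in turn) and with DESeq2 (0.35, adjusted p = 0.0672), and the sign turned at a stricter class threshold of 5 Tnnt2 UMIs (−0.16, adjusted p = 0.465). Hes1 did not pass (−0.08, adjusted p = 0.385, edgeR). In all, 5 of the 6 members tested passed, Jag2 among them, against 43.9% of all 11314 genes. Notch1, Notch4, Dll1 and Dll4 did not pass the filter on low counts. Tnnt2 itself, which chose the cells, lay at 3065 to 6683 CPM in the Myl2-positive and 363.1 to 1703 CPM in the Myl2-negative cells, so the sides also differed in how muscle-rich they were, and the part of that in the member differences was not tested. Of 28 other pathway genes, 4 were higher and 6 lower (35.7%, beside 43.9% of all genes), led by Dlk1 (−1.42), Hes6 (0.88), Psen2 (0.70) and Notch3 (−0.66).

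**Figure D2:**
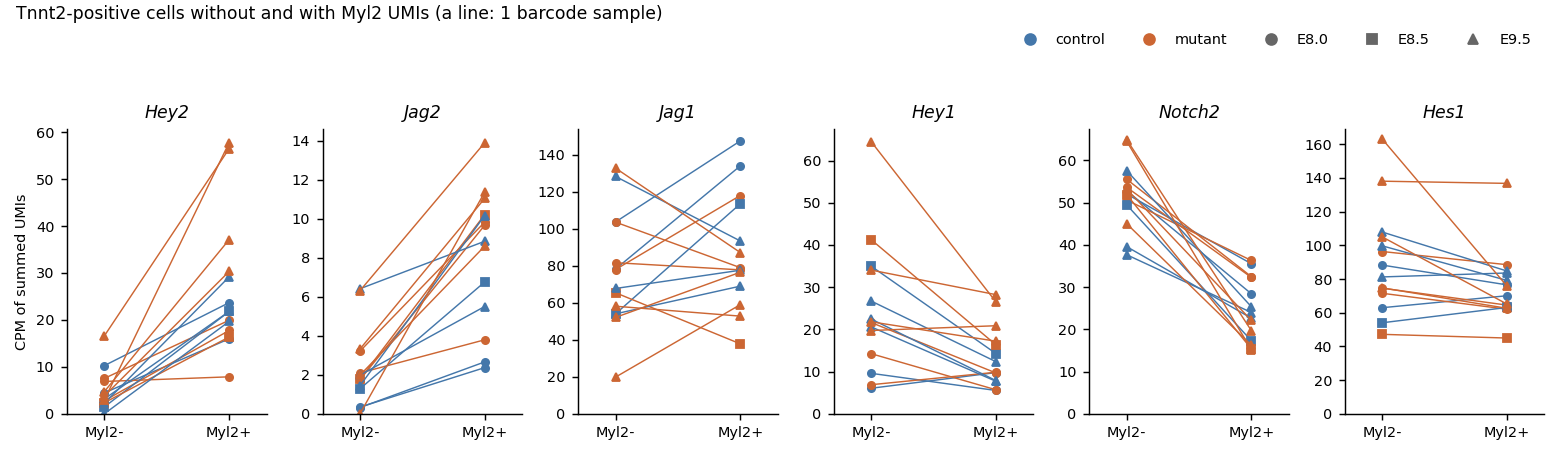
Level of the 6 tested members (CPM) in Tnnt2-positive cells without and with UMIs of Myl2. A line joins the values of 1 barcode sample (14 samples) and colour gives its genotype; every line rises for Hey2 and Jag2 and falls for Notch2.

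The endothelial and somitic classes held few cells for such divisions, so pooled values are given first. Among Cdh5-positive cells, 132 had UMIs of Nfatc1, the endocardial transcription factor, and 194 had none. Pooled over samples, Hey1 was at 37.2 CPM with Nfatc1 (exact Poisson 95% interval 31.4 to 43.9) and 19.9 CPM without (interval 16.0 to 24.4), Notch1 at 47.1 and 34.9 CPM, and Dll4 at 23.2 and 24.5 CPM. In the 3 samples with 10 cells on both sides, 0 of 6 members passed with edgeR, against 0.0146% of 6869 genes (302 genes had an unadjusted p under 0.05), and the fitted value of Hey1 there had the opposite sign (−0.55, adjusted p = 0.995). That of Dll4, nearly equal in the pooled cells, was −1.19 ± 0.37 (adjusted p = 0.963, edgeR). Among Tcf15-positive cells, 30 had UMIs of Tbx6, a gene of the presomitic mesoderm. Dll1 was at 147.0 CPM in these (interval 121.2 to 176.5) and 4.85 CPM in the other 2234 (interval 4.27 to 5.49), and Notch1 at 37.4 and 11.5 CPM, while no UMI of Jag2 or Dll4 was seen in them (upper bound 4.75 CPM each). The segmentation genes Dll3 (180.5 against 5.54 CPM), Hes7 (92.8 against 2.75 CPM) and Mesp2 (59.3 against 0.924 CPM) were also high there. No test over samples could be made for this division. The intervals of these pooled values, with Nfatc1 and with Tbx6, cover counting error only and not the spread between samples.

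From E8.0 to E9.5, with genotype and run as terms, Jag1 fell in all cells, in Tnnt2-positive cells and in Tcf15-positive cells. In Tnnt2-positive cells at E8.0 it lay at 78.5, 93.0 and 116.9 CPM in controls and 90.7, 96.2 and 80.5 CPM in mutants. At E9.5 the controls were at 70.8, 58.3, 110.8, 108.6 and 110.1 CPM and the mutants at 56.0, 31.1, 58.3, 74.7 and 110.0 CPM. At E9.5 every sample of runs 2 and 3 was above every sample of run 1, and within run 1, which holds every E8.0 sample, the stages did not overlap. The fitted log2 fold change was −0.79 ± 0.14 (adjusted p = 0.00107, edgeR), without the run term −0.29 (adjusted p = 0.361), and in cells of at least 5 Tnnt2 UMIs −0.34 (adjusted p = 0.0663). In Tcf15-positive cells the value was −0.92 ± 0.23 (adjusted p = 0.0139, edgeR; −0.74 and 0.0504 at 5 Tcf15 UMIs) and over all cells −1.01 ± 0.14 (adjusted p = 6.34e-05). In Cdh5-positive cells the 2 E8.0 samples, both mutant, were at 96.2 and 74.7 CPM and the 1 E9.5 mutant, Bar19, at 22.5 CPM. With a term for genotype the stage value (−1.90 ± 0.44, adjusted p = 0.0446, edgeR) rests on these 3 samples, and the E9.5 controls (10.1, 21.3 and 9.33 CPM) had no E8.0 counterpart of 20 cells. With samples of at least 10 cells, E8.0 controls of 25.8, 15.4 and 18.5 CPM and an E8.0 mutant with no Jag1 UMI in 11 cells entered, and the value was −1.34 (adjusted p = 0.0908, edgeR). The call was also lost with no run term (adjusted p = 0.0704) and without the E8.0 mutant Bar27 (adjusted p = 0.0852).

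Jag1 was the only member of 10 that passed between stages in all cells, where 21.7% of genes passed, and the only one of 7 in Cdh5-positive cells, where 2.60% passed. In Tnnt2-positive cells 2 of 8 passed, against 18.2% of genes. The second was Hey1, which rose by 1.07 ± 0.25 on the log2 scale (adjusted p = 0.00632, edgeR). At E8.0 it lay at 7.96, 7.02 and 8.35 CPM in controls and 7.82, 18.0 and 11.6 CPM in mutants, and at E9.5 at 16.6, 22.6, 29.0, 28.6 and 14.9 CPM in controls and 31.7, 20.5, 20.0, 6.59 and 45.5 CPM in mutants. Most E9.5 samples were above the E8.0 samples, with an overlap that included 1 mutant below every E8.0 sample. Hey2 did not pass between stages in Tnnt2-positive cells. With cells of at least 1 Tnnt2 UMI the value for Hey1 was 0.63 (adjusted p = 0.07, edgeR).

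In Tcf15-positive cells 5 of 10 members passed between stages, against 15.0% of all genes (2 of the members passed at 5 Tcf15 UMIs, Notch2 and Hes1), and the members' median log2 fold change was 0.18 against 0.01 over all genes. Dll1 lay at 5.396, 7.65 and 16.9 CPM in E8.0 controls and 26.0, 8.94 and 11.6 CPM in E8.0 mutants, then at 2.61, 3.05, 4.15 and 2.77 CPM in E9.5 controls and 5.37, 9.40 and 3.96 CPM in E9.5 mutants. It fell by 1.54 ± 0.35 on the log2 scale (adjusted p = 0.00828, edgeR), with 1 E9.5 mutant inside the E8.0 range, and did not pass in cells of at least 5 Tcf15 UMIs (−1.16, adjusted p = 0.0813). Of the Dll1 UMIs of Tcf15-positive cells, 114 lay in the cells with Tbx6 UMIs and 252 in the others. The share of Tcf15-positive cells with Tbx6 UMIs was 2.56 ± 1.85% in E8.0 controls (n = 3) and 2.52 ± 0.967% in E8.0 mutants (n = 3), against 1.11 ± 0.621% in E9.5 controls (n = 4) and 0.654 ± 1.13% in E9.5 mutants (n = 3), and its part in the Dll1 value was not tested. Hes1 rose by 0.53 ± 0.11 (adjusted p = 0.00463, edgeR), from 65.4 to 91.7 CPM over the 6 E8.0 samples to 58.9 to 180.8 CPM over the 7 E9.5 samples, of which 1 control lay below all E8.0 samples. The E8.5 samples, all of run 2, were not part of these fits, so no steady course is read. Over all cells Hes1 at E8.5 was at 43.5 to 45.5 CPM in controls and 44.3 CPM in the mutant, below the E8.0 range of 60.9 to 97.1 CPM. Notch2 fell by 0.465 ± 0.12 (adjusted p = 0.0164, edgeR), with overlapping ranges of 51.6 to 78.0 CPM at E8.0 and 40.2 to 69.3 CPM at E9.5, and did not pass with no run term (adjusted p = 0.0727).

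The 5 include Dll4, which passed the filter on low counts through the E9.5 mutant Bar21 alone, so its call is no support. It had 1 UMI in each genotype at E8.0, and 16 UMIs in the controls and 24 in the mutants at E9.5. Most of these E9.5 UMIs came from cells that were also positive for another class gene: in cells positive for Tcf15 alone there were 5 UMIs in controls and 1 in mutants. Of the other pathway genes, 6 rose and 3 fell of 39 between stages in all cells (23.1%, beside 21.7% of all genes), 0 of 25 passed in Cdh5-positive cells (beside 2.60%), 6 of 31 rose in Tnnt2-positive cells (19.4%, beside 18.2%), and 1 rose and 2 fell of 37 in Tcf15-positive cells (8.11%, beside 15.0%). These shares were near or below those of all genes. The Tnnt2-positive set was led by Hes5 (2.80), the ubiquitin ligase gene Dtx4 (1.66), Dlk1 (0.93) and Maml2 (0.88). The Tcf15-positive set was Dlk1 (3.42), Mesp2 (−2.52) and Dll3 (−1.09), the last 2 being genes of segmentation, and in all cells Dtx4 (1.44), Dlk1 (1.33), Mesp2 (−1.24) and Maml2 (0.51) led.

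**Figure D3:**
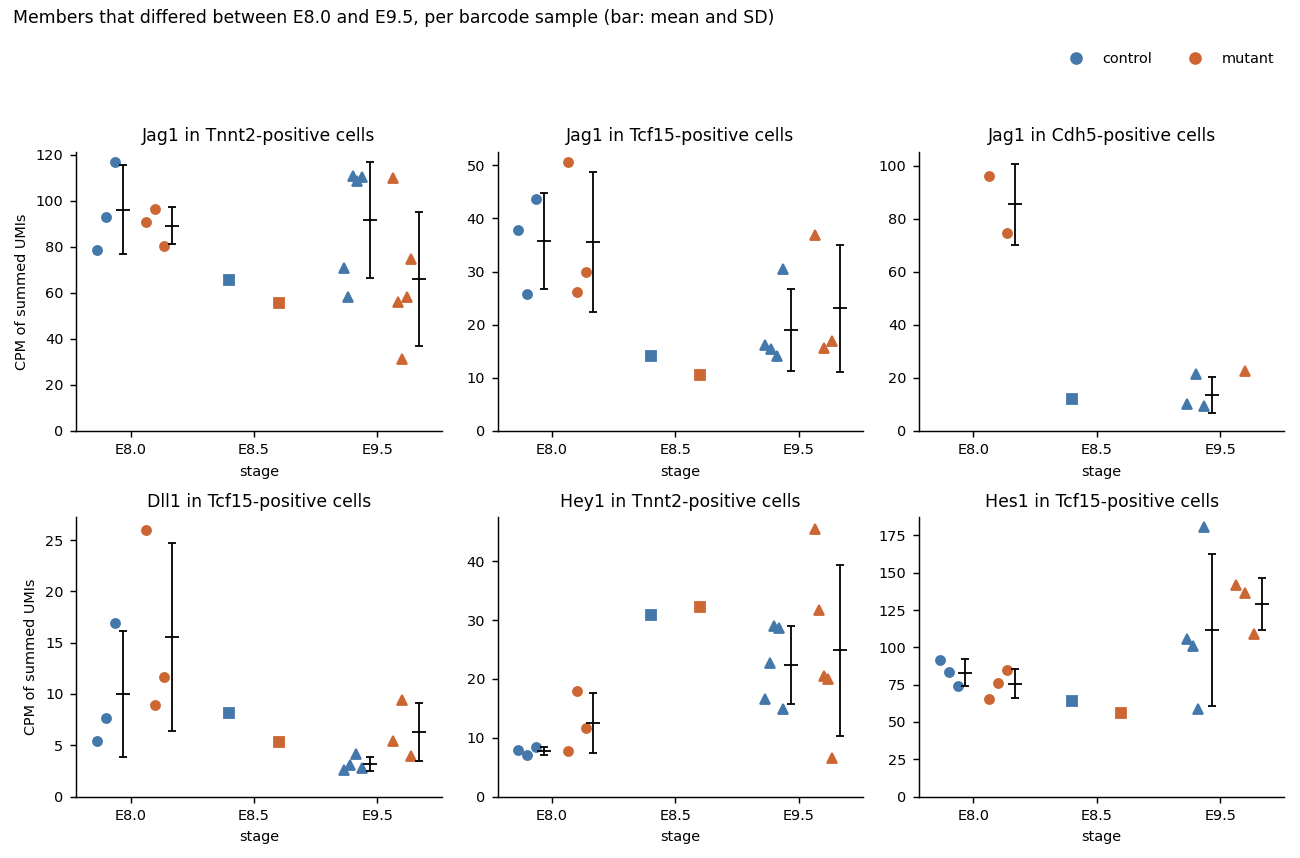
Members that differed between stages, by stage and genotype (CPM). A point is 1 barcode sample and bars give the mean and SD; Dll1 is lower and Hes1 higher at E9.5 in most Tcf15-positive samples, Hey1 is higher at E9.5 in most Tnnt2-positive samples, and Jag1 in Tnnt2-positive cells overlaps between stages over the 3 runs.

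Between genotypes, Jag2 was the member with the firmest difference. It encodes a Jagged ligand, and over all cells it was higher in the mutants at E8.0 and at E9.5. At E8.0 the controls were at 1.26, 1.45 and 1.13 CPM and the mutants at 2.03, 2.05 and 1.95 CPM, with no overlap. At E8.5 the controls were at 0 and 0.636 CPM and the mutant at 2.00 CPM. The 6 controls of E9.5 lay between 0 and 1.71 CPM with a median of 1.06 CPM, and the mutants between 2.16 and 4.70 CPM with a median of 3.65 CPM. Every mutant was above every control at each of these stages, and at E9.5 also within each run. The controls at 0 CPM were small, Bar2 with 34 cells at E8.5 and Bar6 with 6 cells at E9.5. In Bar6 3 UMIs make 22.3 CPM, so 1 UMI would have put it above every mutant. These zeros therefore add little to the separation. Bar5, the E9.5 mutant of run 2, had 57 cells. The fitted log2 fold change was 1.08 ± 0.18 over all stages (adjusted p = 0.00127, edgeR) and 1.31 ± 0.22 at E9.5 (adjusted p = 0.00279). With a term for the share of male cells it was 1.11 (adjusted p = 0.0107) and 1.08 (adjusted p = 0.0153), and it passed without each sample in turn. The summed level of blood genes, which enter the total, was 111600 ± 69440 CPM (SD) in the 6 E9.5 controls and 87750 ± 62430 CPM in the 6 mutants. Heart genes had higher means in the mutants over all cells: 3 ventricular genes (Myl2, Irx4 and Myh7) summed to 72.8 ± 32.5 and 139.5 ± 4.17 CPM in E8.0 controls and mutants and to 179.2 ± 155.6 CPM (range 7.44 to 452.7) and 331.4 ± 210.4 CPM (range 72.2 to 666.0) at E9.5. The 7 cardiomyocyte genes summed to 2043 ± 542.9 and 3716 ± 18.2 CPM at E8.0 and to 2478 ± 2153 and 3760 ± 3124 CPM at E9.5. Jag2 was higher in Myl2-positive cells, and the part of these gene levels in its all-cell values was not tested.

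**Figure D4:**
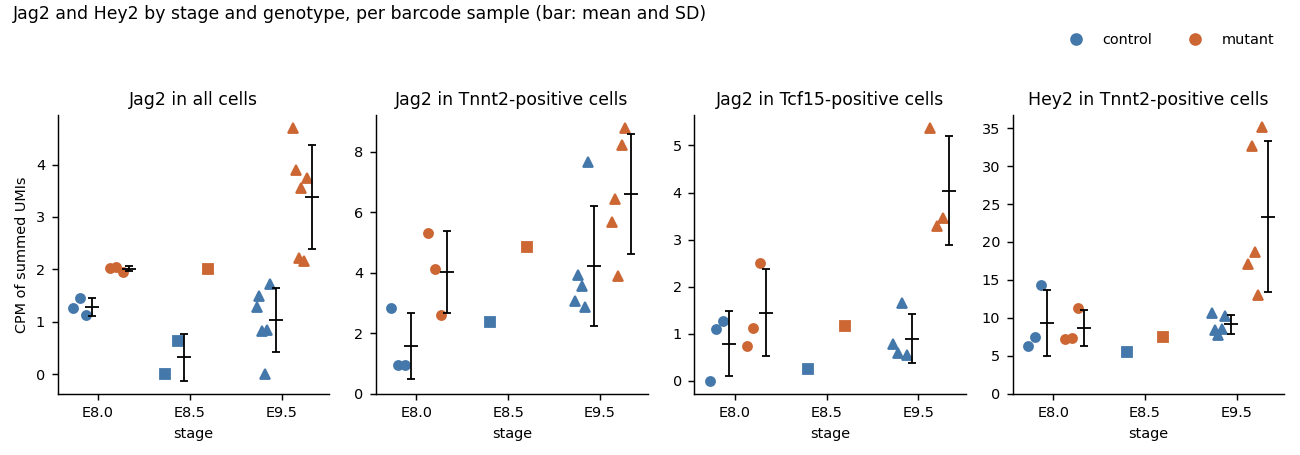
Level of Jag2 and Hey2 (CPM) by stage and genotype in all cells and in cell classes. A point is 1 barcode sample and bars give the mean and SD; Jag2 in all cells is higher in every mutant than in every control of its stage, and Hey2 in Tnnt2-positive cells does not overlap between genotypes at E9.5 and does at E8.0.

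Jag2 was also followed outside the classes and within the Tnnt2 and Tcf15 classes. In Cdh5-positive cells it did not pass the filter on low counts, so it was not tested between genotypes there. In E9.5 cells positive for none of the class genes, Jag2 was 0.792 ± 0.387 CPM in controls (SD, range 0.261 to 1.22, n = 5) and 2.81 ± 1.03 CPM in mutants (range 1.38 to 4.43, n = 6), again without overlap, whereas in such E8.0 cells the means were 1.01 ± 0.503 and 0.799 ± 0.129 CPM (n = 3 each). In Tnnt2-positive cells, Jag2 lay at 2.84, 0.937 and 0.9546 CPM in E8.0 controls and 5.32, 4.14 and 2.62 CPM in E8.0 mutants. At E9.5 it lay at 3.08, 3.91, 3.56, 2.86 and 7.68 CPM in controls and 6.44, 3.88, 8.24, 8.79 and 5.69 CPM in mutants. The ranges overlapped at both stages, and the log2 fold change over stages was 0.93 ± 0.27 (adjusted p = 0.0657, edgeR), short of the threshold, and at E9.5 it was 0.60 ± 0.37 (adjusted p = 0.47). No member of 8 passed in Tnnt2-positive cells over all stages, where 2.85% of genes passed, and DESeq2 called none either. Hey2 (0.57, adjusted p = 0.24, edgeR) was among those that did not pass. With no filter on low counts 3 passed, Jag1 (−0.29, adjusted p = 0.0416), Jag2 (0.91, adjusted p = 0.0278) and Hey2 (0.55, adjusted p = 0.0455), and in cells of at least 1 Tnnt2 UMI Jag2 passed (1.13, adjusted p = 0.00533, edgeR).

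In Tcf15-positive cells at E9.5, Jag2 lay at 0.793, 0.587, 1.66 and 0.555 CPM in controls (15 UMIs in all) and 5.37, 3.29 and 3.47 CPM in mutants (22 UMIs). The groups did not overlap. It was the 1 member of 8 called there, where 13.0% of all genes were, but it passed the filter on low counts through the mutant Bar19 alone, so the call is no support, and without Bar19 it was not tested. With no filter the log2 fold change was 2.36 ± 0.49 (adjusted p = 0.0129, edgeR). All 3 mutants were of run 1, while the controls Bar4 and Bar9 were each alone in their run. With the run term, these E9.5 fits therefore compare Bar22 and Bar23 with Bar19, Bar20 and Bar21. A fit in run 1 alone draws on the same samples. The controls were all mostly female, and Bar19 and Bar21 were mostly male. Over all stages the 2 of 10 called, against 4.07% of genes, were Jag2 and Dll4, which passed the filter through 1 mutant each (Bar19 and Bar21), and nothing is read from this count. With no filter Jag2 was at 1.79 ± 0.46 there (adjusted p = 0.00859, edgeR). With the filter and the male share as a term Jag2 was at 2.18 (adjusted p = 0.198) at E9.5 and at 1.63 (adjusted p = 0.358) over all stages. In cells of at least 1 Tcf15 UMI it was at 1.45 (adjusted p = 0.0494) and 1.05 (adjusted p = 0.0994, edgeR).

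Endothelial genes were also at a higher level in the mutants among the same Tcf15-positive cells. The summed level of the 7 genes at E9.5 was 126.4 ± 20.2 CPM in controls (SD, range 112.2 to 155.2, n = 4) and 313.4 ± 138.1 CPM in mutants (range 192.3 to 463.7, n = 3), with Kdr, the VEGF receptor gene, at 14.7 ± 3.65 and 71.0 ± 38.9 CPM. Dll4 lay at 0.567, 0.47, 2.49 and 2.22 CPM in E9.5 controls and 4.03, 3.76 and 4.96 CPM in E9.5 mutants, and Notch4 at 2.38, 2.58, 1.66 and 1.66 CPM against 6.71, 5.17 and 5.45 CPM. Both sets of mutants lay above the controls. In cells positive for Tcf15 alone, Dll4 was at 0.153 ± 0.182 CPM in controls and 0.201 ± 0.348 CPM in mutants, on 5 UMIs and 1 UMI, and Notch4 at 1.87 ± 0.69 and 2.65 ± 1.17 CPM. Jag2 in them was at 0.951 ± 0.611 CPM in controls (14 UMIs, highest 1.86) and 2.65 ± 0.748 CPM in mutants (13 UMIs, lowest 1.81), although the ranges overlapped slightly and it was too low to be tested. Kdr in these cells was at 7.32 ± 3.99 CPM in controls (range 2.80 to 12.5) and 25.3 ± 19.5 CPM in mutants (range 10.8 to 47.5), and Cdh5 had 8 UMIs and none. The part of endothelial RNA in the Jag2 values was not tested.

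Hey2, the repressor of ventricular muscle, was higher in E9.5 mutants. In Tnnt2-positive cells the controls lay at 10.6, 8.44, 7.70, 8.58 and 10.2 CPM and the mutants at 32.7, 18.7, 12.9, 35.2 and 17.1 CPM, with no overlap. The log2 fold change was 1.23 ± 0.28 (adjusted p = 0.0331, edgeR), and Hey2 was the 1 member of 7 that passed, against 2.13% of all genes. At E8.0 Hey2 lay at 6.25, 7.49 and 14.3 CPM in controls and 7.20, 7.31 and 11.3 CPM in mutants, which overlapped throughout, and at E8.5 at 5.45 and 7.48 CPM. The E9.5 call is near the threshold: it was lost without any 1 of the controls Bar22, Bar23, Bar7 and Bar9 or of the mutants Bar19 and Bar8 (log2 fold change 0.94 to 1.40 over all samples left out in turn), with the male share as a term (1.14, adjusted p = 0.118) and in run 1 alone (1.19, adjusted p = 0.175). The fold stayed near its size in these fits.

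The share of Tnnt2-positive cells with Myl2 UMIs was alike in both genotypes at E9.5, at 39.6 ± 18.8% (SD) in 5 controls and 39.4 ± 11.3% in 5 mutants. Within the Myl2-positive cells of E9.5, Hey2 lay between 19.7 and 29.2 CPM in 3 controls (mean 23.5 ± 4.99) and between 30.3 and 57.8 CPM in 4 mutants (mean 45.4 ± 13.8). Within Myl2-negative cells it was 2.17 ± 1.52 CPM in 4 controls and 7.03 ± 6.43 CPM in 4 mutants. The genotypes did not overlap in the Myl2-positive cells and overlapped in the others. The lowest mutant, Bar10 (30.3 CPM in 26 cells), lay above the highest control, Bar22 (29.2 CPM), by less than 1 UMI of Bar10, which makes 3.79 CPM. The controls Bar4 and Bar7, with 19 Myl2-positive cells each, fell short of 20. The 3 controls left were mostly female, while the mutants Bar19 and Bar21 were mostly male. Hey1 in Myl2-positive cells was 9.31 ± 2.63 CPM in controls (n = 3) and 23.2 ± 5.10 CPM in mutants (n = 4), although in all Tnnt2-positive cells Hey1 did not pass. In E9.5 cells positive for none of the class genes Hey2 was 3.57 ± 0.889 and 4.15 ± 2.30 CPM, closer together than in the muscle cells.

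Over all cells at E9.5, Jag2 and Hey2 (0.81 ± 0.21, adjusted p = 0.0257, edgeR) were the 2 members of 10 that passed, against 10.3% of genes. Hey2 lay at 0 to 4.99 CPM in the 6 controls (median 3.904) and 3.23 to 10.49 CPM in the 6 mutants (median 6.88), with overlap, and the call was lost without Bar22, Bar23, Bar9 or Bar19 (0.67 to 0.96 over the samples left out in turn), with the male share as a term (0.74, adjusted p = 0.0607) and in run 1 alone (0.80, adjusted p = 0.0871). The ventricular genes given beside Jag2 above had a higher mean in these mutants, with overlap, and their part in the all-cell Hey2 values was not tested. Over all stages the 2 of 10 were Jag2 and Hey1 (0.41 ± 0.13, adjusted p = 0.0477, edgeR), against 10.2% of genes, and the Hey1 call was lost in 15 of the 22 fits that left out 1 sample (0.35 to 0.49 over all 22; kept without Bar18, Bar29, Bar25, Bar3, Bar6, Bar20 or Bar8) and with the male share as a term (0.33, adjusted p = 0.226). The members' median log2 fold change was 0.22 at E9.5 and 0.21 over all stages, against 0.02 over all genes in both. No member passed as lower in the genotype fits with the filter on low counts.

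**Figure D5:**
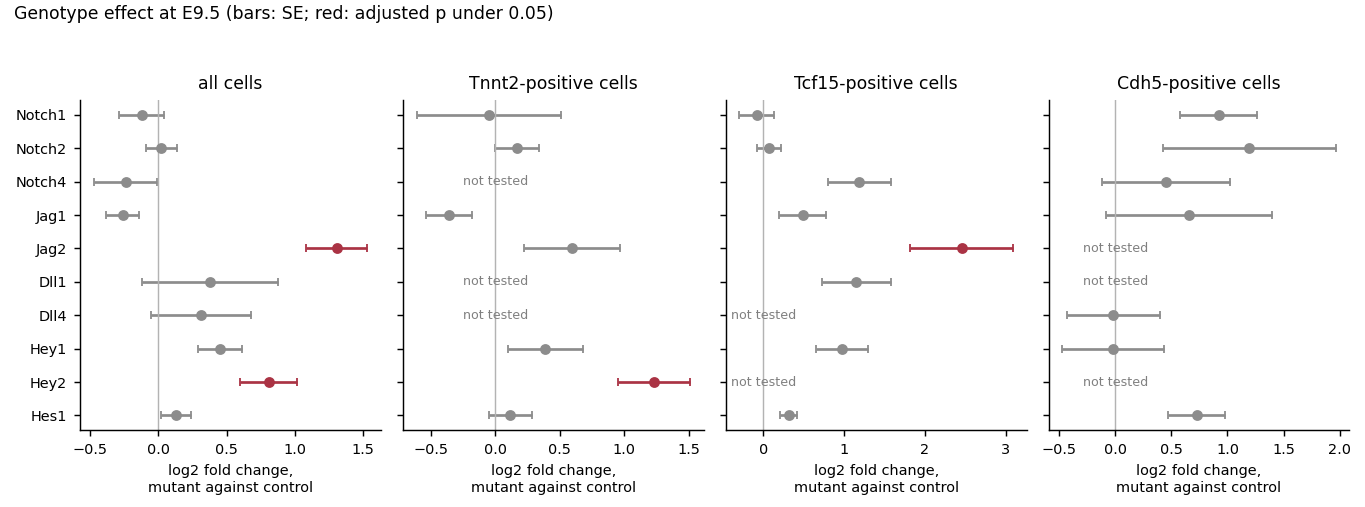
Fitted genotype effect of each tested member at E9.5 (log2 fold change, mutant against control) in all cells and in the 3 cell classes. Bars give the standard error and red marks an adjusted p under 0.05: Jag2 and Hey2 in all cells, Hey2 in Tnnt2-positive cells and Jag2 in Tcf15-positive cells, where it was tested through 1 mutant sample.

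In Cdh5-positive cells none of 7 members passed, over all stages (0.543% of genes, and 928 genes at an unadjusted p under 0.05) or at E9.5 (1.11% of genes, 903 at an unadjusted p under 0.05), with edgeR or DESeq2. These fits used 7 and 4 samples but rest on the same 1 mutant, Bar19 of E9.5. At E8.0 both samples were mutant and at E8.5 the 1 sample was a control. With stage as a term, neither stage therefore bears on genotype. With the run term, Bar19 is set against Bar22 and Bar23, the controls of its run. The fitted values of Notch1 were nearly equal (0.93 over all stages and 0.92 at E9.5). Bar19 was mostly male and the controls mostly female. Notch1 was at 63.3 CPM in Bar19 and at 31.3, 32.7 and 38.7 CPM in the E9.5 controls. Of the 21 Cdh5-positive cells of that mutant, 42.9% were positive for another class gene, against 11.1 to 19.1% in the controls. With samples of at least 10 cells, 3 mutants lay between 36.0 and 63.3 CPM and 4 controls between 25.9 and 38.7 CPM, with overlap. No difference in the endothelial members passed in these few samples, which does not show that they were alike. Wls did not pass in these cells either (−2.64 ± 0.82, adjusted p = 0.267, edgeR).

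The genotype effect was also compared between E9.5 and E8.0 as an interaction. With the filter on low counts, no member passed with edgeR in any set, or with DESeq2 in the 3 sets in which it was run (all, Tnnt2-positive and Tcf15-positive cells). In all cells 0.464% of genes passed (2060 at an unadjusted p under 0.05), in Cdh5-positive cells 0.0345% (624; samples of at least 10 cells), in Tnnt2-positive cells 0% (1123) and in Tcf15-positive cells 0.669% (1761). Hey2 was at 1.11 ± 0.34 in all cells (adjusted p = 0.188) and at 1.42 ± 0.46 in Tnnt2-positive cells (adjusted p = 0.341), and in Tcf15-positive cells Hes1 was at 0.44 ± 0.18 (adjusted p = 0.285) and Notch4, tested through E9.5 mutants alone, had an adjusted p of 0.102. Without the filter, Hey2 passed in all cells (1.05, adjusted p = 0.0314) and in Tnnt2-positive cells (1.39, adjusted p = 0.0159, edgeR). The fold changes were close to those with the filter, so whether a difference between the stages is called depends on this setting. Sex and genotype cannot be told apart at E8.0, whose genotype effect is subtracted here. No interaction fit had the male share as a term.

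Of the 39 other pathway genes, 3 rose and 1 fell with genotype over all cells (10.3%, beside 10.2% of all genes), a share near the background. Heyl, another Hey-family repressor gene, fell (log2 fold change −1.32), and Dlk1, which encodes a Delta-like protein that lacks the Notch-binding domain of the ligands, rose (0.57), with the coactivator gene Maml3 (0.45) and Dtx3 (0.34). The same 4 genes passed over all cells at E9.5 (Heyl −2.22, Dlk1 0.84, Maml3 0.67, Dtx3 0.45) and in Tcf15-positive cells at E9.5 (Heyl −2.25, Dlk1 0.69, Maml3 0.65, Dtx3 0.52). They were 4 of 37 tested in the former (10.8%, beside 10.3% of all genes) and 4 of 33 in the latter (12.1%, beside 13.0%). Both shares were near the background. Sex and genotype largely coincide in the latter cells. For the listed genes, no values were kept with the male share as a term, in run 1 alone or with samples left out. Dlk1 also rose at E9.5 in Tnnt2-positive cells (0.73), as the 1 of 29 tested that passed there (3.45%, beside 2.13% of all genes). In Cdh5-positive cells at E9.5 it passed at 2.07, in a fit with 1 mutant sample, which is assumed there to vary like the controls. Over all stages, the corepressor gene Spen fell in Tnnt2-positive cells (−0.37, adjusted p = 0.0357, edgeR), and none of the list passed in Cdh5-positive or Tcf15-positive cells. Spen was 1 of 32 tested (3.12%, beside 2.85% of all genes). The list's median log2 fold change was 0.07 over all cells and 0.05 at E9.5, near the 0.02 of all genes.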

How the data were processed

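The deposited matrix holds raw UMI counts per gene and cell, which the authors made with kallisto and bustools and demultiplexed by MULTI-seq barcode, per the labels; the submitters' processing notes also name bustools 0.46.1, Cell Ranger and GRCm38. The deposited per-cell table gave the run, barcode, stage and genotype. Filters on cells and the use of strand are not given in the sources used here, and doublets were not removed.

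Counts were summed per barcode sample, and per cell class in samples with at least 20 cells of the class (a class needs 2 UMIs of its gene; Myl2, Nfatc1 and Tbx6 need 1). The test was the two-sided quasi-likelihood F test of edgeR 4.0.16 (R 4.3.3), after filterByExpr and TMM, with Benjamini-Hochberg adjustment at 0.05 over all genes tested, with terms for run and for stage or genotype. The standard error is the log2 fold change over the root of F. The interaction in Cdh5-positive cells and the Nfatc1 division needed samples of 10 cells, and the Tbx6 division could not be fitted, unlike the design. The code was tested on simulated data. Alternatives were DESeq2 1.42.0, RLE size factors, no filter, other class thresholds, sex scored from the X- and Y-linked counts, no run term, run 1 alone and each sample left out; added after the data were seen were samples of 10 or 50 cells, 5 cells per side and cells positive for 1 class gene alone. All 10 members are described, and of 39 other pathway genes up to 4 per comparison past the threshold with the largest change. Likeness used log2(CPM + 1) over genes with a mean of at least 5 CPM. Globin-high cells had at least 1000 globin UMIs. The members and lists were chosen with earlier results of these data known.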

Additional observations from a re-analysis of the deposited data

Results flagged for a closer look

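Of 50 groups of 4 to 10 samples, 8 held a sample whose gap to the nearest other was too large a part of the range of its group (Dixon's 95% value), where chance flags about 1 group in 20. In all cells the E9.5 control Bar6, which has 6 cells, was at 37.19 CPM for Dll1 (5 UMIs; next 1.659 CPM) and at 22.31 CPM for Hey1 (3 UMIs; next 10.56 CPM). In Tnnt2-positive cells at E9.5, Notch1 was at 8.577 CPM in the control Bar7 (3 UMIs; next 2.882 CPM) and at 3.533 CPM in the mutant Bar21 (6 UMIs; next 2.198 CPM), and Notch4 was at 4.397 CPM in the mutant Bar8 (2 UMIs; next 1.896 CPM). These values rest on 2 to 6 UMIs each. Jag2 was at 7.683 CPM in Tnnt2-positive cells of the E9.5 control Bar9 (15 UMIs in 150 cells; next 3.912 CPM), and this sample lies inside the range of the mutants. In Tcf15-positive cells at E9.5, Notch1 was at 1.66 CPM in the control Bar4 (2 UMIs in 49 cells; next 12.24 CPM), and Jag1 was at 30.5 CPM in the control Bar9 (55 UMIs in 128 cells; next 16.09 CPM).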

How the results depend on the processing

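Depth limits the lowest members: Dll4 outside Cdh5-positive cells, Dll1 outside Tcf15-positive cells and Jag2 in Tcf15-positive cells rest on few UMIs per sample, and Cdh5-positive cells reached 20 cells in 7 samples. RLE size factors kept the call of every member in all 19 comparisons. Jag1 between Myl2-positive and Myl2-negative cells turned from 0.37 to −0.16 at 5 Tnnt2 UMIs. Of 30 mean levels of a member in a class, 5 moved by over 1.5 times at 1 UMI of the class gene and 8 at 5 UMIs, among them Notch1 in Tnnt2-positive cells (2.89 to 1.71 CPM at 5 UMIs), Notch4 (17.9 to 11.3 CPM) and Jag1 (35.2 to 55.3 CPM) in Cdh5-positive cells, the last 2 with 7 and then 3 samples. The cause of these changes and of those below was not tested.

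The members called between genotypes moved as follows. In all cells 2 became 1 with the male share as a term, and at E9.5 2 became 1 with that term and in run 1 alone. In Tnnt2-positive cells 0 became 3 with no filter and 1 at 1 UMI of the class gene, and at E9.5 1 became 0 with the male share and in run 1 alone. In Tcf15-positive cells 2 became 0 at 1 UMI and with the male share, 0 with DESeq2, which gave the 2 called members no adjusted p, 0 at 5 UMIs and in cells positive for Tcf15 alone, where they were not tested, and 1 with samples of 10 cells. At E9.5 their 1 became 0 with the male share, with DESeq2 (no adjusted p for Jag2) and, with Jag2 not tested, at 5 UMIs, in run 1 alone and in cells positive for Tcf15 alone, and 2 with no filter and at 1 UMI. The interaction went from 0 to 1 with no filter in all cells and in Tnnt2-positive cells, Hey2 in both (1.05 and 1.39).

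Between stages, 1 in all cells became 2 with no filter, with no run term and with samples of 50 cells. In Cdh5-positive cells 1 became 0 with DESeq2 (no adjusted p for Jag1) and with no run term, and 2 with no filter. In Tnnt2-positive cells 2 became 1 at 1 UMI, where Hey1 was lost, and 4 at 5 UMIs. At 5 UMIs Hey1 was kept and Jag1 lost, so the others called were members that did not pass at 2 UMIs. In Tcf15-positive cells 5 became 2 at 5 UMIs and 3 with no run term.

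With each sample left out in turn, the members called between genotypes ranged from 1 to 3 in all cells, 0 to 0 in Cdh5-positive, 0 to 1 in Tnnt2-positive and 0 to 2 in Tcf15-positive cells, and the ranges were the same at E9.5; for the interaction they were 0 to 0. In Cdh5-positive cells this covers 6 of the 7 samples, and 1 of 4 at E9.5. Between stages they were 1 to 3, 0 to 2, 2 to 3 and 4 to 5. Between classes they were 4 to 6 (Cdh5 against Tnnt2), 6 to 9 (Cdh5 against Tcf15) and 7 to 8 (Tnnt2 against Tcf15), and 4 to 5 for Myl2. No paired analysis was possible because the barcodes carry no number that is shared between genotypes.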

Other observations

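Within single cells thinned to 5000 UMIs, Hey1 was detected in 9 of 31 Cdh5-positive cells with a UMI of Dll4 (29.0%, exact binomial 95% interval 14.2 to 48.0%) and in 32 of 294 without (10.9%, interval 7.57 to 15.0%), with overlapping intervals. In the same class Hey1 was found in 14.1% of 64 cells with Notch1 and 12.3% of 261 without. Dll4 was found in 9.375% and 9.58% of these, and in 19.05% of 21 cells with Notch4 and 8.88% of 304 without. Jag1 was found in 11.1% of 27 cells with Notch2 and 11.4% of 298 without. The intervals of each of these pairs overlapped too. Hey2 was detected in 4 of 41 Cdh5-positive cells with Hey1 (9.76%, interval 2.72 to 23.1%) and in 5 of 284 without (1.76%, interval 0.574 to 4.06%), with overlapping intervals. In Tnnt2-positive cells Hey2 was found in 4.42% of 181 cells with Hey1 (interval 1.93 to 8.52%) and 5.29% of 2061 without (interval 4.36 to 6.34%), so the 2 Hey genes did not differ detectably in their joint detection there. Jag1 was found in 19.7% of 402 Tnnt2-positive cells with Notch2 (interval 15.9 to 23.9%) and in 27.0% of 1840 without (interval 24.99 to 29.1%). Dll1 and Hes1 were found together in 19 of 45 Tcf15-positive cells with Dll1 (42.2%, interval 27.7 to 57.9%), against 32.4% of 2198 without (interval 30.5 to 34.4%). Cells of several samples are pooled in these shares, so the intervals cover counting error only and no test over samples was made.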
